A study of Oryctolagus cuniculus with 3 samples.

Results

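RAB proteins are small GTPases that label the membranes of the cell, each switching between a GTP-bound form that recruits effectors and a GDP-bound form that is extracted from the membrane. Activators called GEFs load GTP, inactivators called GAPs stimulate its hydrolysis, and a prenyl anchor holds the protein on the membrane. Some RABs, such as those of the early endosome, the recycling endosome and the Golgi, are used by nearly every cell, while others serve phagosomes, lysosomes and the lysosome-related granules of pigment cells, platelets and leukocytes. In the arterial wall the main cell is the contractile smooth muscle cell, and lipid-laden macrophages are the cells best known for heavy phagocytic and lysosomal traffic.

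The RAB genes were taken as the rabbit rows whose symbol is RAB, a number and at most 1 further letter. That pattern matched 49 of 15248 rabbit rows, and 48 of them are RAB GTPases. The other row, named RAB1/RNASE4, is described in the deposited annotation as a ribonuclease and was left out. The 48 genes were measured in the muscle layer of the aorta, the media, of male JW/CSK rabbits aged 9 months. TgHC rabbits carried a mouse PGC-1alpha gene and ate a high-cholesterol diet for 20 weeks, HC rabbits were non-transgenic on that diet, and chow rabbits were non-transgenic on chow. RNA of 5 rabbits was pooled into 1 library per group, so the differences below carry neither an error nor a test. The sources used here do not give the promoter of the transgene. The chow library was sequenced on another lane than TgHC and HC, so lane and diet cannot be told apart.

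The deposited unit is FPKM, which relates fragments to gene length and to library size. Differences are in log2(FPKM + 1) and were taken over 11597 rabbit genes whose FPKM averaged at least 1 over the libraries. A gene is counted at a difference of at least 1 in size, called 2-fold below. The mouse transgene was listed at 12.8 FPKM in TgHC and at 0 in HC and in chow. The 12 contractile smooth muscle marker rows summed to 16999 FPKM in TgHC, 12414 in HC and 30124 in chow, and none was listed at 0. The 21 macrophage marker rows summed to 2375 FPKM in TgHC, 2539 in HC and 82.5 in chow, where MARCO, ITGAX and SPI1 were listed at 0. In pooled tissue RNA, fewer cells of a type and less RNA per cell cannot be told apart. A value listed at 0 may not mean absence. Of the genes tested, 291 were listed at 0 in some library. Among them was PI16, at 298 FPKM in TgHC, 0 in HC and 411 in chow.

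The 48 RAB genes together made up 0.252% of all FPKM in TgHC, 0.252% in HC and 0.211% in chow. RAB7A, which directs late endosomes and phagosomes to fuse with lysosomes (chromosome 9, 7633585 to 7650746, OryCun2.0), was the highest member in every library, at 392 FPKM in TgHC, 432 in HC and 428 in chow. RAB1A, which carries vesicles from the endoplasmic reticulum to the Golgi (chromosome 2, 121177308 to 121212010), came next in every library, at 245 FPKM in TgHC, 293 in HC and 170 in chow. The order below them differed between libraries. RAB5B, an early endosome RAB (chromosome 4, 39540618 to 39544536), had 105 FPKM in TgHC, 95.8 in HC and 148 in chow, and ranked 5 of 48 in TgHC, 7 in HC and 3 in chow. RAB13, a RAB of cell junctions and of transport to the plasma membrane, ranked 4 in TgHC, 4 in HC and 14 in chow.

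**Figure D1:**
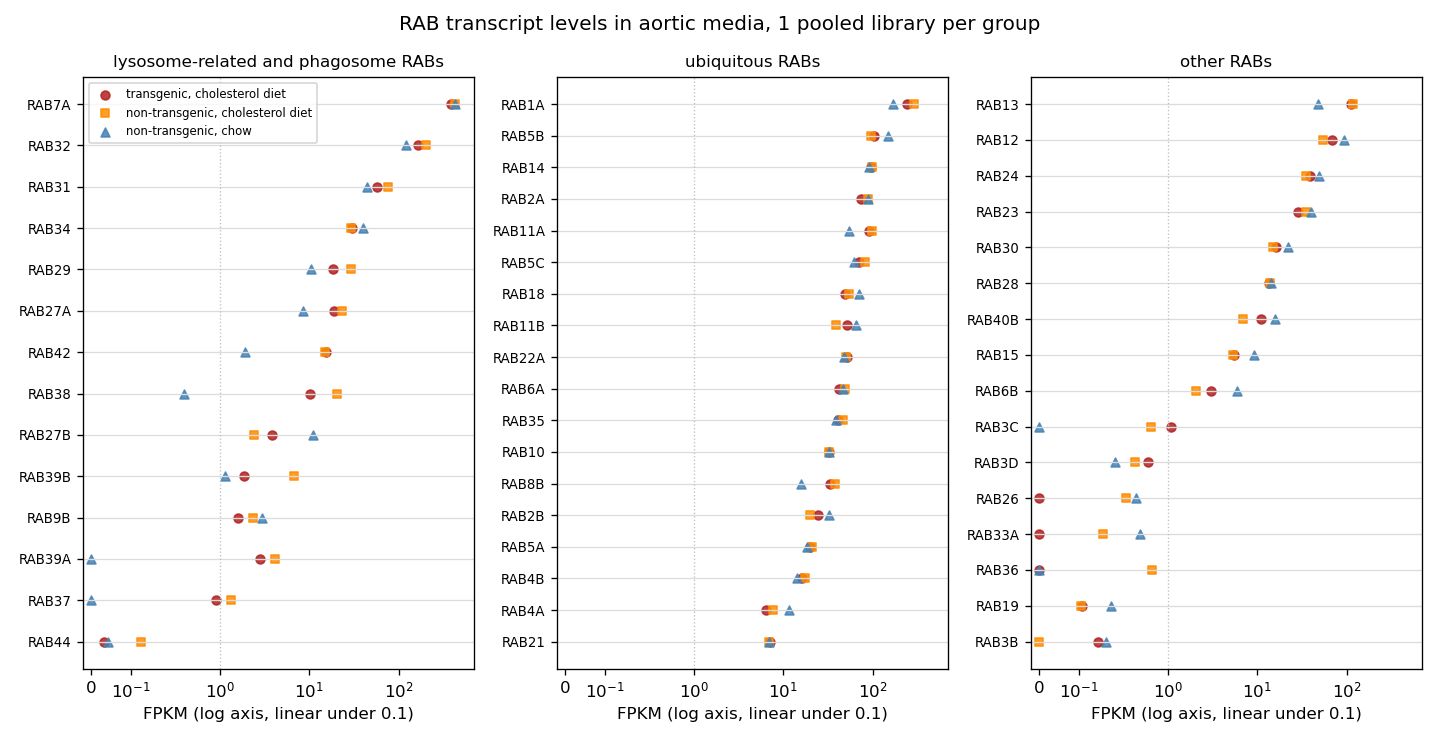
FPKM of each of the 48 RAB genes in TgHC (transgenic, cholesterol diet), HC (non-transgenic, cholesterol diet) and chow (1 pooled library each), on a log axis that is linear near 0, split into lysosome-related and phagosome, ubiquitous and other RABs. Most ubiquitous RABs lie close together across libraries, while RAB38 (10.3 FPKM in TgHC, 20.6 in HC, 0.395 in chow) and RAB42 lie far lower in chow.

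The members were grouped by a chosen main role, in lists drawn up with earlier results of these data known. Some genes could have been placed otherwise. By these lists 14 are RABs of lysosomes, lysosome-related organelles and phagosomes, 18 are ubiquitous RABs, and 16 are others. RAB7B, RAB9A, RAB20 and RAB43 of the first list, and RAB1B and RAB8A of the ubiquitous list, had no row under these symbols and were not analysed here. Of the 48 members, 39 averaged at least 1 FPKM: 12 lysosome-related, 18 ubiquitous and 9 other RABs. RAB38 and RAB39A were under 1 FPKM in chow and passed this filter through TgHC and HC. The 9 members that did not pass never exceeded 1.32 FPKM in any library.

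In HC media, 11 of the 39 RABs differed at least 2-fold from chow, in shares near those of all genes. The lysosome-related list held 7 of the 11. Of the 39 members, 8 were at least 2-fold higher in HC: RAB38, RAB42, RAB39A, RAB39B, RAB29, RAB27A, RAB13 and RAB8B. They are 20.5% of the members, against 15.9% of all genes tested. At least 2-fold lower in HC were 3 members, RAB27B, RAB6B and RAB40B, which are 7.69% of the members, against 6.99% of all genes. Both shares were near the background, and the family's median difference was 0.01, against 0.02 for all genes. At a lower limit of 1.5-fold, 12 members were higher and 8 lower in HC, where 24.3% of all genes were higher and 16.6% lower. At 4-fold, 3 were higher (RAB38, RAB42 and RAB39A) and 0 lower, where 7.15% of all genes were higher and 0.733% lower.

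The lists by role had different counts. Of all genes tested, 15.9% were at least 2-fold higher in HC than in chow and 6.99% lower, with a median of 0.02. Of the 12 lysosome-related and phagosome RABs, 6 were at least 2-fold higher in HC than in chow and 1 was lower, with a median difference of 1.06. Of the 18 ubiquitous RABs, 1 was at least 2-fold higher and 0 lower, with a median of 0.07. The 9 other RABs had 1 higher and 2 lower, with a median of -0.52. Among the 10 lysosome-related RABs of at least 1 FPKM in chow, 4 were at least 2-fold higher, 1 was lower, and the median was 0.76. With 1 library per group this contrast between the lists describes these libraries only. It also depends on the placement of genes. RAB42 (2.47), RAB39B (1.85) and RAB31 (0.77) were counted as lysosome-related and RAB14 (0.08) as ubiquitous. Other placements of these genes were not tried, so how far the contrast rests on them is unknown. Macrophage markers stood beside it, with 19 of 20 at least 2-fold higher in HC than in chow (median 4.36), and so did contractile smooth muscle markers, with 11 of 12 at least 2-fold lower (median -1.41). Their part in the result was not tested.

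**Figure D2:**
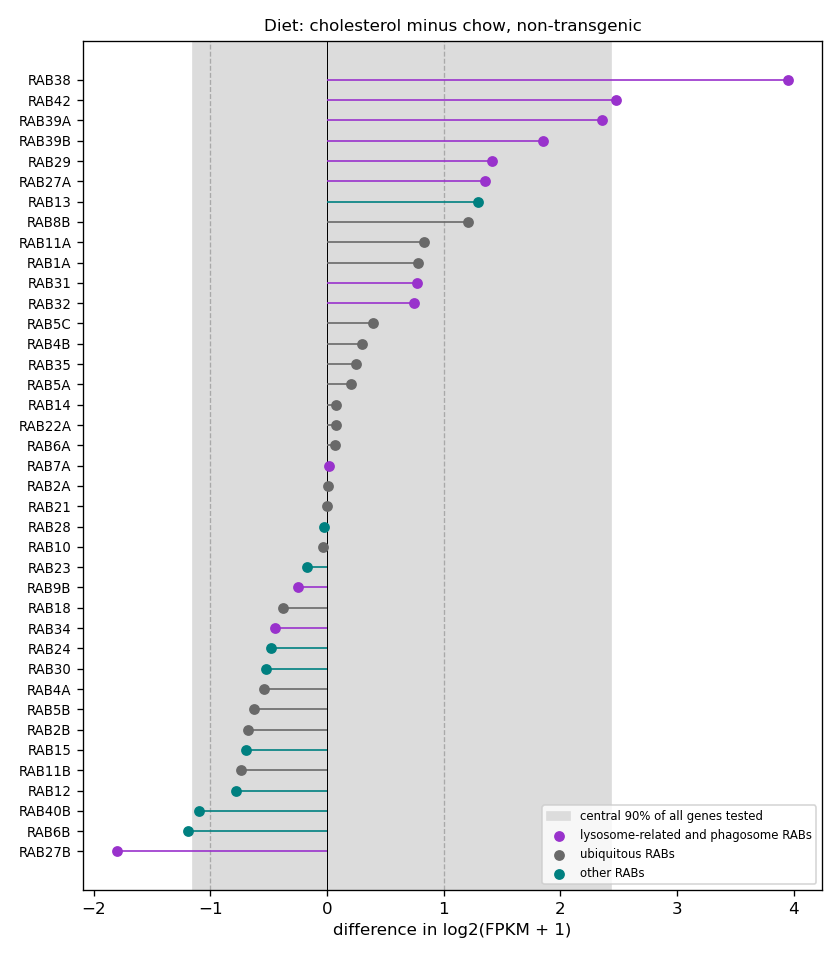
Difference in log2(FPKM + 1), HC minus chow, for the 39 RABs that averaged at least 1 FPKM, coloured by role; dashed lines mark 2-fold and the grey band holds the central 90% of all 11597 genes tested. RAB38 (3.95) and RAB42 (2.47) lie right of the band, RAB27B (-1.80) and RAB6B (-1.19) lie left of it, and 17 of 18 ubiquitous RABs lie between the dashed lines.

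RAB38 had the widest diet difference of the family at a pseudocount of 1. With its relative RAB32 it sends cargo to melanosomes and other lysosome-related organelles. The gene (chromosome 1, 128616048 to 128692740) stood at 10.3 FPKM in TgHC, 20.6 in HC and 0.395 in chow. The HC value was 52.2 times that of chow, a log2 difference of 3.95, at rank 193 from the top of the 11597 genes. Since the chow value is low, the difference depends on the pseudocount: it was 5.39 with 0.1, where RAB39A, listed at 0 in chow, had 5.40, and it was 2.25 with 5. RAB32 (chromosome 12, 137500497 to 137514427) was far more abundant, at 165 FPKM in TgHC, 205 in HC and 122 in chow. Its HC value was 1.68 times that of chow, under 2-fold. Within a library, where any scaling between libraries cancels, RAB38 was 0.0622 of RAB32 in TgHC, 0.101 in HC and 0.00325 in chow.

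RAB38 and RAB32 are best known in pigment cells, so pigment cell markers were examined beside them. MLANA was at 230 FPKM in TgHC, 212 in HC and 0.356 in chow. PMEL, the melanosome fibril protein, was at 0.740 FPKM in TgHC, 0.768 in HC and 0.0621 in chow. The pigment enzyme TYR was listed at 0 in TgHC, at 0.104 in HC and at 0 in chow, and the pigment transporter OCA2 was listed at 0 in all 3 libraries. DCT and SLC45A2 did not exceed 0.183 FPKM in any library. The pigment cell markers other than MLANA were thus at or near 0 in every library.

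RAB42, RAB39A and RAB39B were low in chow. RAB42, a little-studied member (chromosome 13, 136960279 to 136963199), had 15.2 FPKM in TgHC, 15.2 in HC and 1.92 in chow. Its HC value was 7.93 times that of chow, a log2 difference of 2.47, or 1.55 with a pseudocount of 5. RAB39A, which acts on phagosomes in macrophages (chromosome 1, 108623931 to 108665131), had 2.83 FPKM in TgHC and 4.13 in HC and was listed at 0 in chow. RAB39B, a RAB studied mainly in neurons and lying on an unplaced scaffold, had 1.85 FPKM in TgHC, 6.75 in HC and 1.15 in chow, a diet difference of 1.85. HC was the highest library for RAB39A and RAB39B, and chow the lowest. With that pseudocount, the diet differences of RAB39A and RAB39B were 0.87 and 0.93 and no longer 2-fold.

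RAB29, a RAB of the trans-Golgi and of stressed lysosomes that recruits the kinase LRRK2 (chromosome 16, 66416694 to 66423274), stood at 18.4 FPKM in TgHC, 29.4 in HC and 10.4 in chow, a diet difference of 1.41. LRRK2 itself had 5.65 FPKM in TgHC, 4.71 in HC and 7.85 in chow (-0.63). RAB31, which works between the trans-Golgi and endosomes (chromosome 9, 51981441 to 52122912), had 57.7 FPKM in TgHC, 76.6 in HC and 44.4 in chow (0.77). These RABs shared the order HC highest and chow lowest, which LRRK2 did not. RAB34, which positions lysosomes and acts in macropinocytosis and cilia (chromosome 19, 19447784 to 19452324), had 29.996 FPKM in TgHC, 29.1 in HC and 40.0 in chow (-0.45). RAB7A, the most abundant lysosomal member, was in HC at 1.01 times its chow level.

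RAB27A and RAB27B, close relatives that dock secretory granules at the plasma membrane, lay on opposite sides of chow. RAB27A, which leukocytes and pigment cells use for granule traffic (chromosome 17, 17291030 to 17327125), had 18.8 FPKM in TgHC, 23.4 in HC and 8.53 in chow, a diet difference of 1.36. RAB27B, known from platelets and mast cells (chromosome 9, 95362936 to 95469172), had 3.81 FPKM in TgHC, 2.41 in HC and 10.9 in chow, a diet difference of -1.80. RAB27A was the higher of the pair in TgHC and HC, and RAB27B in chow. The ratio of RAB27A to RAB27B was 4.93 in TgHC, 9.71 in HC and 0.781 in chow. With a pseudocount of 5 the diet difference of RAB27B was -1.10. The platelet list had 2 rows, which ran opposite ways: ITGA2B had 3.15 FPKM in TgHC, 1.81 in HC and 1.21 in chow, and GP1BA was listed at 0 in TgHC and had 0.0517 FPKM in HC and 0.134 in chow. The mast cell marker KIT had 0.536 FPKM in TgHC, 0.726 in HC and 0.845 in chow, and MS4A2 had 0.106 FPKM in TgHC, 0.466 in HC and 0.201 in chow. The neutrophil and mast cell list as a whole summed to 32.1 FPKM in TgHC, 12.2 in HC and 1.08 in chow. In TgHC and HC the sum was carried by S100A8 and S100A9, which were listed at 0 in chow. CSF3R of the same list had 0.403 FPKM in TgHC, 0.140 in HC and 0.0363 in chow. The part of these markers in the RAB27 values was not tested.

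The other members past 2-fold on the diet were RAB13, RAB8B, RAB6B and RAB40B. RAB13 (chromosome 13, 38533035 to 38536465) had 112 FPKM in TgHC, 119 in HC and 48.3 in chow, a diet difference of 1.29. RAB8B, a RAB of transport to the plasma membrane (chromosome 17, 8990770 to 9073379), had 33.5 FPKM in TgHC, 37.9 in HC and 15.8 in chow, a diet difference of 1.21. TgHC and HC were close together for both genes, and chow was lower. RAB6B, a Golgi RAB best known from brain (chromosome 14, 27783172 to 27842716), had 3.05 FPKM in TgHC, 2.07 in HC and 5.999 in chow, a diet difference of -1.19. RAB40B, which belongs to a ubiquitin ligase complex and lies on an unplaced scaffold, had 11.1 FPKM in TgHC, 6.88 in HC and 15.8 in chow, a diet difference of -1.10. For RAB6B and RAB40B chow was the highest library and TgHC stood between it and HC.

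Members past 2-fold on the diet were mostly of lower abundance. Their mean FPKM over the libraries had a median of 10.8 over 11 genes, against 44.1 over the 28 genes under 2-fold. Of the 20 members with the highest mean level, 1 differed at least 2-fold, and that was RAB13. Level was not set against the diet difference for all genes, so this may not be particular to RABs.

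The other 17 ubiquitous RABs differed by -0.74 to 0.83 between HC and chow. At the upper end was RAB11A of the recycling endosome (chromosome 17, 6400687 to 6425909), with 90.8 FPKM in TgHC, 98.0 in HC and 54.7 in chow. At the lower end was its relative RAB11B, with 52.4 FPKM in TgHC, 39.2 in HC and 66.0 in chow. RAB14, a RAB of endosomes and phagosomes that lies on an unplaced scaffold, had 96.2 FPKM in TgHC, 97.5 in HC and 92.3 in chow, so its libraries were close together. RAB18, found on lipid droplets and the endoplasmic reticulum (chromosome 16, 6635369 to 6677959), had 48.7 FPKM in TgHC, 54.2 in HC and 70.9 in chow (-0.38). The early endosome RAB5A had 20.1 FPKM in TgHC, 21.3 in HC and 18.3 in chow (0.21).

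Ratios of relatives within a library differed between libraries, also between TgHC and HC on the same diet. RAB2A was 2.98 times RAB2B in TgHC, 4.47 times in HC and 2.73 times in chow, so TgHC lay nearer chow than HC. RAB11A was 1.73 times RAB11B in TgHC, 2.50 times in HC and 0.829 times in chow, so the higher of the pair was not the same in chow. RAB5C was 0.669 times RAB5B in TgHC, 0.855 times in HC and 0.419 times in chow. RAB4B was 2.53 times RAB4A in TgHC, 2.32 times in HC and 1.23 times in chow, both being RABs of fast recycling. The Golgi RAB RAB6A was 13.7 times RAB6B in TgHC, 23.6 times in HC and 7.76 times in chow. Which gene of a pair was divided by the other was a free choice. Whether chow has the lower or the higher ratio is therefore not a result shared across pairs.

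**Figure D3:**
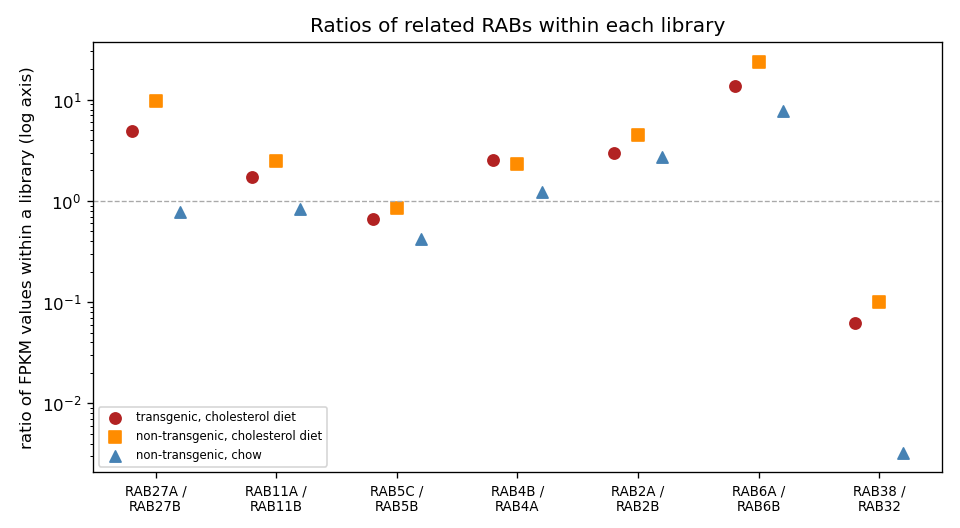
Ratio of the FPKM values of related RABs within each library, on a log axis, for TgHC, HC and chow (1 pooled library each); the dashed line marks equal values. The RAB27A to RAB27B ratio is 4.93 in TgHC, 9.71 in HC and 0.781 in chow, and RAB38 to RAB32 spans the widest range.

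The RABs of the remaining group that were under 2-fold ran between -0.78 and -0.03 in HC against chow. RAB12, which acts in autophagy and receptor turnover (chromosome 9, 53234548 to 53243397), had 68.9 FPKM in TgHC, 54.0 in HC and 93.4 in chow. RAB24, also linked to autophagy, had 38.9 FPKM in TgHC, 35.3 in HC and 49.5 in chow. RAB23, a brake on hedgehog signalling at the cilium, had 28.7 FPKM in TgHC, 35.0 in HC and 39.5 in chow. The 6 genes of this kind, which also include RAB15, RAB28 and RAB30, were all below chow in HC as deposited, but scaling to the same FPKM sum without mitochondrial genes turned RAB23 (0.01) and RAB28 (0.14), and scaling with them turned RAB28 (0.03).

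Between TgHC and HC, the RAB family differed little. Of the 39 members, 0 were at least 2-fold higher in TgHC, against 1.7% of all genes, and 1 was at least 2-fold lower, which is 2.56% of the members against 2.1% of all genes. That member was RAB39B, at 1.85 FPKM in TgHC and 6.75 in HC, a difference of -1.44. It rests on low values, and with a pseudocount of 5 the difference was -0.78. At 1.5-fold, 1 member was higher (RAB40B) and 3 were lower (RAB39B, RAB38 and RAB29), where 6.11% of all genes were higher and 6.71% lower. At 4-fold there were 0 in either direction, where 0.431% of all genes were higher and 0.586% lower. The median of the members was -0.11, against -0.01 for all genes.

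**Figure D4:**
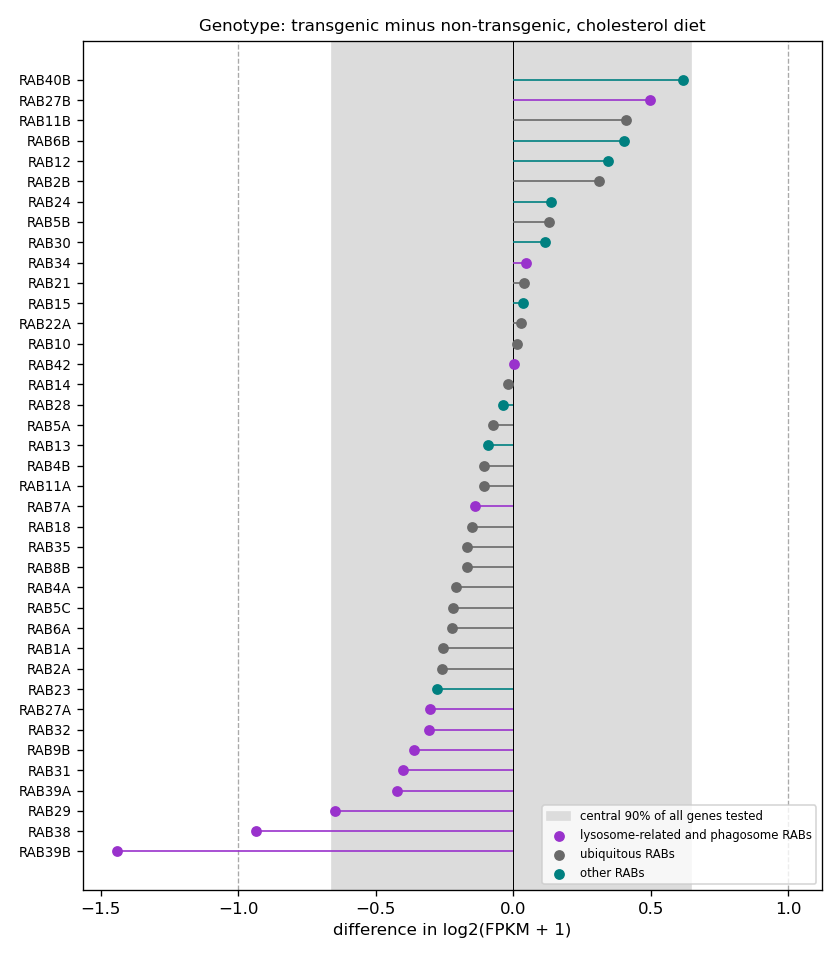
Difference in log2(FPKM + 1), TgHC minus HC, for the same 39 RABs, with the same colours, dashed lines at 2-fold and a grey band for the central 90% of all genes. RAB39B (-1.44) lies beyond 2-fold on the low side, RAB38 (-0.94) lies between the band and that line, and the 6 lowest members are all lysosome-related.

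The lysosome-related and phagosome RABs had a genotype median of -0.33, with 9 of 12 below 0, and a median of -0.22 to -0.32 under the 3 other scalings tried. Of all 11597 genes tested, 5998 were below 0, with a median of -0.01. Among the 9, RAB9B and RAB39A rest on low values. The 18 ubiquitous RABs had a median of -0.11 with 12 below 0, which turned to 0.02 when libraries were scaled to the same FPKM sum. RAB38 was at 10.3 FPKM in TgHC and 20.6 in HC, a ratio of 0.499. On the log2(FPKM + 1) scale this is -0.94, so it was not counted. RAB29 came next, with 18.4 FPKM in TgHC and 29.4 in HC (-0.65). RAB42 had a difference of 0.00 and RAB7A one of -0.14. Of the 39 members, 15 were above 0. RAB40B (0.62), RAB27B (0.50), RAB11B (0.41) and RAB6B (0.40) lay furthest above it, all under 2-fold. Both comparisons use the HC library, so an error in that library enters them with opposite sign.

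Macrophage markers also differed between TgHC and HC, in both directions. Of 20, C1QB and C1QC were at least 2-fold higher in TgHC, MSR1 was at least 2-fold lower, 14 were below 0, and the median was -0.29. Of all 11597 genes tested, 1.7% were at least 2-fold higher and 2.1% lower, 5574 were above 0 and 5998 below. All 12 contractile markers were above 0, with a median of 0.55 and none at 2-fold. T cell markers summed to 5.03 FPKM in TgHC, 10.9 in HC and 5.45 in chow, B and plasma cell markers to 43.6 FPKM in TgHC, 184 in HC and 5.52 in chow, and endothelial markers to 232 FPKM in TgHC, 184 in HC and 142 in chow. The part of these markers in the RAB values was not tested.

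The lowest members may rest on few fragments. After allowing for the relative depth of the libraries, RAB9B, RAB37 and RAB39A had the same ratio of TgHC to HC, 0.667, which is that of 2 whole fragments to 3 or of a multiple. RAB44, a large RAB of granules, had a ratio of 0.250. RAB9B, which returns receptors from late endosomes to the Golgi (chromosome X, 86305195 to 86305800), had 1.62 FPKM in TgHC, 2.36 in HC and 2.998 in chow. RAB37, a RAB of secretory granules, had 0.902 FPKM in TgHC and 1.32 in HC and was listed at 0 in chow. RAB44 never exceeded 0.130 FPKM. The secretory RABs RAB3B, RAB3C, RAB3D and RAB26 lay between 0 and 1.10 FPKM in all libraries, as did RAB19, RAB33A and RAB36.

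The regulators and effectors of RABs were described from 5 lists. Of 37 activators that averaged at least 1 FPKM, 7 were at least 2-fold higher in HC than in chow and 1 was lower, with a median of 0.23. These are 18.9% and 2.70% of the list, against 15.9% and 6.99% of all genes. DENND1C had 6.38 FPKM in TgHC, 8.53 in HC and 0.699 in chow. RIN3, which activates RAB5 and RAB31, had 29.0 FPKM in TgHC, 31.2 in HC and 6.43 in chow. DENND2D had 3.03 FPKM in TgHC, 3.76 in HC and 0.169 in chow. DENND1C and DENND2D were under 1 FPKM in chow and passed the filter through TgHC and HC, which raises the share of higher activators. The others at least 2-fold higher were DENND3, DENND5B, DENND1B and TRAPPC1. ST5, also called DENND2B, an activator of RAB13, had 47.5 FPKM in TgHC, 30.4 in HC and 85.7 in chow (-1.46), so it was lower in HC where RAB13 was higher. HPS1 and HPS4, which together activate RAB32 and RAB38, were under 2-fold, with diet differences of 0.78 and 0.33. MON1A, MON1B and CCZ1, which activate RAB7A, had diet differences of -0.35, 0.39 and 0.87.

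Of 33 inactivators, 5 were at least 2-fold higher in HC than in chow and 1, TBC1D16, was lower, with a median of -0.06. The 5 are 15.2% of the list, against 15.9% of all genes, and the 1 is 3.03%, against 6.99%. TBC1D2, an inactivator of RAB7A, had the widest difference, with 13.8 FPKM in TgHC, 15.3 in HC and 0.975 in chow (3.04). Being under 1 FPKM in chow, TBC1D2 passed the filter through TgHC and HC. TBC1D4, which insulin signalling controls in muscle and fat, had 5.41 FPKM in TgHC, 6.86 in HC and 1.418 in chow. Its relative TBC1D1 had 26.6 FPKM in TgHC, 30.5 in HC and 9.39 in chow. TBC1D9B and TBC1D22B were also at least 2-fold higher. TBC1D16 had 11.4 FPKM in TgHC, 10.05 in HC and 21.3 in chow, and its call at -1.01 was lost under both scalings to the same FPKM sum. All 6 genes of prenylation and membrane cycling were under 2-fold.

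Of 34 effectors, 3 were at least 2-fold higher in HC than in chow and 0 lower, with a median of -0.15. The 3 are 8.82% of the list, under the 15.9% of all genes. UNC13D, an effector of RAB27A that primes granules for release, had 6.25 FPKM in TgHC and 10.8 in HC. Its row spans 3 to 1797 at the start of an unplaced scaffold and may hold only part of the gene. MLPH, which links RAB27A on melanosomes to a myosin motor, had 6.79 FPKM in TgHC and 4.74 in HC. Both were listed at 0 in chow and passed the filter through TgHC and HC. MYO5A, the motor that MLPH recruits, had 5.81 FPKM in TgHC, 7.87 in HC and 3.62 in chow (0.94). The RAB27 effectors SYTL2 and SYTL4 did not reach 2-fold, at 0.54 and -0.50. PLEKHM1, which joins RAB7A to the machinery of lysosome fusion, had 20.7 FPKM in TgHC, 31.4 in HC and 6.71 in chow. The RAB7A effectors RILP (0.22), OSBPL1A (-0.19) and FYCO1 (-0.31) were under 2-fold. ANKRD27, an effector of RAB32 and RAB38, had 9.06 FPKM in TgHC, 6.63 in HC and 10.7 in chow (-0.62).

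Of 21 genes of the tethering complexes HOPS and CORVET and of the BLOC and AP-3 complexes that build lysosome-related organelles, 4 were at least 2-fold higher in HC than in chow and 0 lower, with a median of 0.25. The 4 are 19.0% of the list, near the 15.9% of all genes. HPS3, a BLOC-2 subunit, had 23.6 FPKM in TgHC, 25.1 in HC and 4.89 in chow. BLOC1S2 had 9.93 FPKM in TgHC, 13.8 in HC and 2.996 in chow. AP3S1, an AP-3 subunit, had 8.97 FPKM in TgHC, 11.7 in HC and 3.81 in chow, and AP3M1 of the same complex was also past 2-fold. The other BLOC-2 subunits HPS5 (0.66) and HPS6 (-0.06) were under 2-fold. The 6 HOPS subunits measured were too, from VPS33A at -0.07 to VPS18 at 0.51. Every gene tested in these 5 lists was under 2-fold between TgHC and HC, with list medians between -0.09 and 0.08. Few genes passed 2-fold in this comparison, 1.7% of all genes tested being higher in TgHC and 2.1% lower.

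**Figure D5:**
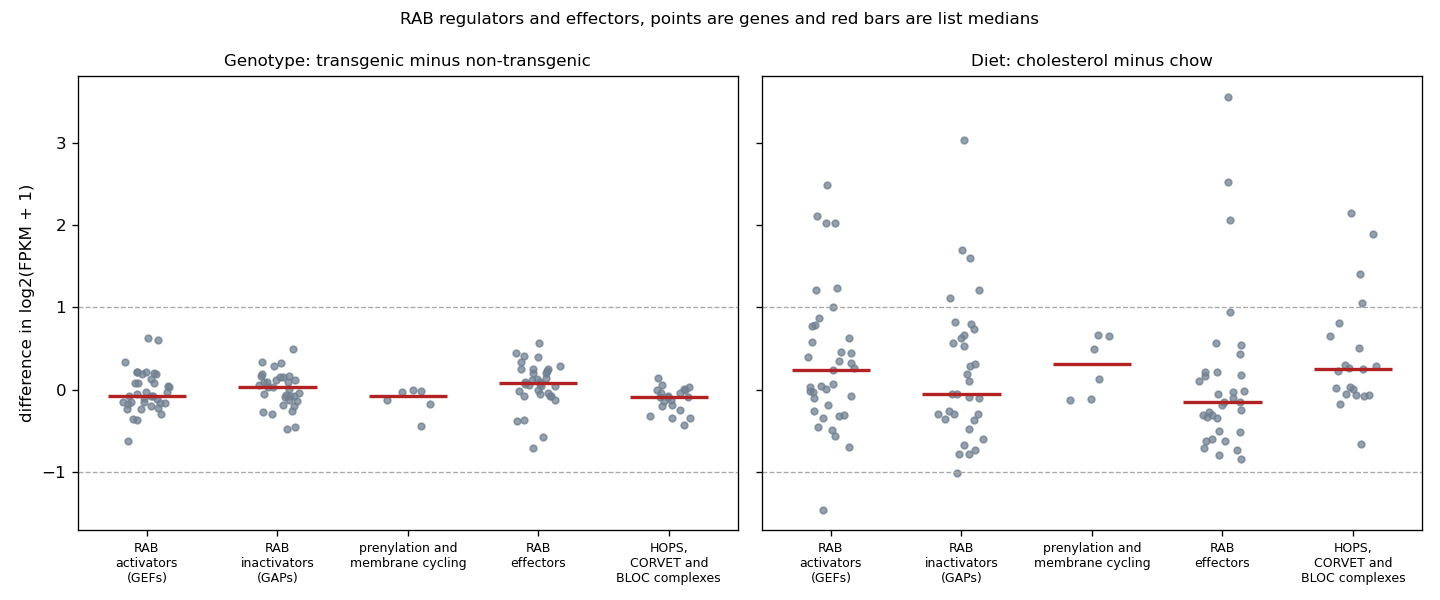
Difference in log2(FPKM + 1) of the RAB activators, inactivators, prenylation and cycling genes, effectors, and HOPS, CORVET and BLOC complex genes, for TgHC minus HC (genotype) and HC minus chow (diet); points are genes that averaged at least 1 FPKM, red bars are list medians and dashed lines mark 2-fold. All genotype points lie inside the 2-fold lines, and the diet points beyond them are mostly on the high side, with list medians between -0.15 and 0.31.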

How the data were processed

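The authors deposited FPKM per gene, as the file headers name the unit. The submitters' processing notes give OryCun2.0 as genome build; the aligner and the counting program were not given in the sources used. Per the labels' protocols, TruSeq libraries were built from mRNA caught on oligo(dT) beads. FPKM summed to 824460 in TgHC, 903706 in HC and 943181 in chow. Library totals are not given. Ratios of low values between libraries cluster at those of small whole numbers, from which relative depths of 1.25 for TgHC and 1.28 for HC were read, with chow at 1.

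One library was subtracted from another in log2(FPKM + 1), which makes differences of low genes smaller than their ratios. Python 3.11.15 with pandas 2.3.3 was used, and the subtraction was tested on simulated data. Named genes are the members past 2-fold, the 5 with the highest mean, all lysosome-related RABs, their numbered relatives, and in each partner list the 3 widest differences each way past 2-fold; other genes were named after their values were seen. The members and lists were chosen with earlier results of these data known. Other pseudocounts, filters, scalings and folds were tried, as was RAB7A as a ubiquitous RAB, the only change of list assignment. Keeping the ribonuclease row and filtering members on chow alone were added after seeing the data.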

Additional observations from a re-analysis of the deposited data

How the results depend on the processing

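No paired analysis was possible because each group has 1 library, and for the same reason no replicate could be left out. With a pseudocount of 5, 1 RAB was at least 2-fold lower in HC than in chow and 0 were lower in TgHC than in HC. With that pseudocount 3 activators, 3 inactivators and 2 genes of the HOPS, CORVET and BLOC list were at least 2-fold higher in HC than in chow, and 0 inactivators were lower. The count of lower inactivators was also 0 when libraries were scaled to the same FPKM sum, with or without mitochondrial genes. Over genes averaging 5 FPKM or more, 3 inactivators were higher in HC than in chow and 0 RABs were lower in TgHC than in HC. Without genes listed at 0 in any library, 1 effector was higher in HC. At 1.5-fold, 8 RABs were lower in HC than in chow, and 1 was higher and 3 were lower in TgHC than in HC. At 4-fold, 3 RABs were higher and 0 lower in HC than in chow, and 0 were lower in TgHC than in HC. No called value changed sign under the alternatives run. Scaling to the same FPKM sum moved the genotype median of all genes to 0.10, and scaling without mitochondrial genes moved their diet median to 0.18. Under the last scaling RAB40B was no longer 2-fold lower and RAB11A was 2-fold higher. The diet median of the lysosome-related RABs lay between 0.76, over members of at least 1 FPKM in chow, and 1.36, with RAB7A moved to the ubiquitous RABs, and that of the ubiquitous RABs between 0.05 and 0.25. Depth is unknown in absolute terms, which leaves the precision of the lowest members unknown.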
